A study of Mus musculus with 6 samples.

Results

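The subject here is 7 marker genes of plasmacytoid dendritic cells, Siglech, Tcf4, Spib, Runx2, Atp1b1, Cox6a2 and Ly6d. They were read in dendritic cells (DCs) sorted from mouse lymph nodes with and without antibiotics. Whether the sort held plasmacytoid DCs was not tested. The genes were matched to array probes by symbol in the platform annotation, which named probes for 6 of the 7. Runx2 was not named there, and its 2 probes were found through the RefSeq accession deposited with each probe. A gene counted as measured when 3 or more of the 6 arrays gave one of its probes a detection p below 0.05. That value compares the probe with the negative controls of its own array. By that rule 4 of the 7 were measured, Tcf4, Spib, Atp1b1 and Cox6a2, and Siglech, Runx2 and Ly6d were not.

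The antibiotics group held DCs from peripheral lymph nodes of mice gavaged with broad-spectrum antibiotics over 10 days, on 3 arrays. The untreated group held DCs from lymph nodes of mice labelled as having no treatment, also on 3 arrays. Titles and the treatment field separate the groups, while the protocol text, which describes antibiotic gavage, is the same for all 6 samples. Whether the untreated mice were gavaged is therefore not clear from the labels, and if they were not, gavage and antibiotics cannot be told apart. Strain, age, the drugs, the surface stains of the sort and the number of mice behind an array are not stated in the sources used here. The arrays are called replicates and nothing says that they came from separate mice, so p-values measure only the spread between these arrays, which may be technical. RNA was labelled with biotin and read on an Illumina mouse bead array with 25697 probes.

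Plasmacytoid DCs are the branch of the DC family that senses viral RNA and DNA in endosomes and answers with large amounts of type I interferon. They carry less of the integrin CD11c than conventional DCs and are a minor population of resting lymph nodes. Their identity depends on the E protein TCF4 (also called E2-2), which binds DNA at E-box sites and acts together with the ETS-family factor SPIB. Several of these genes are shared with the B lineage, above all Spib, Ly6d and Tcf4, so that none of these 3 alone marks a plasmacytoid DC in a mixed RNA sample. In RNA from a sort of many cells, fewer cells of a type and less RNA per cell cannot be told apart.

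The sorted cells carried DC transcripts. The CD11c gene Itgax, the conventional DC factor gene Zbtb46, and the MHC class II genes H2-Ab1 and Cd74 were detected on all 6 arrays, while Flt3, the receptor for the main DC growth factor, was detected on 0. Between 6876 and 7674 probes were detected per array. Antibiotics replicate 1 stood apart from the rest at -25.3 on the first principal component, against 1.36 to 11.5 for the other 5 arrays, and values without it are given for the 4 measured genes and, chosen after the data were seen, for the gene lists where they shift. Correlations between arrays ran from 0.963 to 0.984.

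Because the list turns on an E-box-binding factor, the sequences around the gene starts of 3 members are shown with each E-box, CANNTG, in capitals. They are Siglech, the surface marker that was not measured, Spib, a regulator that was measured but dim, and Atp1b1, the member with the largest difference between the groups. RefSeq promoter windows of GRCm38.p6 were at hand for 4 of the 7. Each runs from 250 bases before to 50 after a start site and is written 5′ to 3′ on the gene's strand. For Siglech and Spib that site differs from the outermost annotated start of the gene, and for Atp1b1 they are the same. The windows are chr7:55767934-55768233 on the plus strand for Siglech, chr7:44532022-44532321 on the minus strand for Spib and chr1:164458306-164458605 on the minus strand for Atp1b1.
Siglech: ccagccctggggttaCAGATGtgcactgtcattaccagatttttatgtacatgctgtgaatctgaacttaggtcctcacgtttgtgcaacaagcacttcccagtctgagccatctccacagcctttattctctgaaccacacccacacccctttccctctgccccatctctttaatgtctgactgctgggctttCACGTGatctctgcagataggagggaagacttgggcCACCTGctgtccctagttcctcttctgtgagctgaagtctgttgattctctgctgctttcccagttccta
Spib: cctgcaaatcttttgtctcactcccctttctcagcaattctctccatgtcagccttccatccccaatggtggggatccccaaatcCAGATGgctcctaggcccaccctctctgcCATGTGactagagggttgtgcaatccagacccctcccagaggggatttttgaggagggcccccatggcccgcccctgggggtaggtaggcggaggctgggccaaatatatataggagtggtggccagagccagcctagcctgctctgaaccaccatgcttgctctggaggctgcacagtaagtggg
Atp1b1: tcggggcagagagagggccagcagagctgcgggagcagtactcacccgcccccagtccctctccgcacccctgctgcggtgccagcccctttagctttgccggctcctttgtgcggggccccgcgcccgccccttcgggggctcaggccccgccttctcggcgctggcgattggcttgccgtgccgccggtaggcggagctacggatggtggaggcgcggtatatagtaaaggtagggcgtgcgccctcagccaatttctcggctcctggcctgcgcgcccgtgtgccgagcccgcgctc
The Siglech window held 3 E-boxes, starting at bases 16, 195 and 231 of the window, and the last of them, CACCTG, is the reverse complement of CAGGTG. The Spib window held 2, at bases 86 and 115. The Runx2 window, not printed, also held 2, and the Atp1b1 window held 0. CANNTG reads the same on both strands and is short, and 72.3% of 27025 windows, 1 per gene, held at least 1. CAGGTG, searched on both strands and a special case of CANNTG, was in 20.0% of them. A match says only that these letters are there.

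Siglech, whose protein Siglec-H is an endocytic receptor of plasmacytoid DCs that signals through the adaptor DAP12 and is the most specific mouse surface marker on the list, stayed at background on most arrays. Its brightest probe read an intensity of 96.1, 91.5 and 107.3 on antibiotics replicates 1 to 3, against 93.3, 109.9 and 94.7 on untreated replicates 1 to 3. It was detected on 1 array of each group. The detection value was 0.04386 on antibiotics replicate 3 and 0.03885 on untreated replicate 2. The groups overlapped, and the median of all probes lay between 84.7 and 89.2 on these arrays. Both other Siglech probes were detected on 0 arrays, with intensities between 79.1 and 87.2. Tyrobp, the gene of the adaptor DAP12 that many other myeloid and lymphoid receptors also use, was detected on all 6 arrays and differed by a log2 fold change of -0.031 (SE 0.14).

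**Figure D1:**
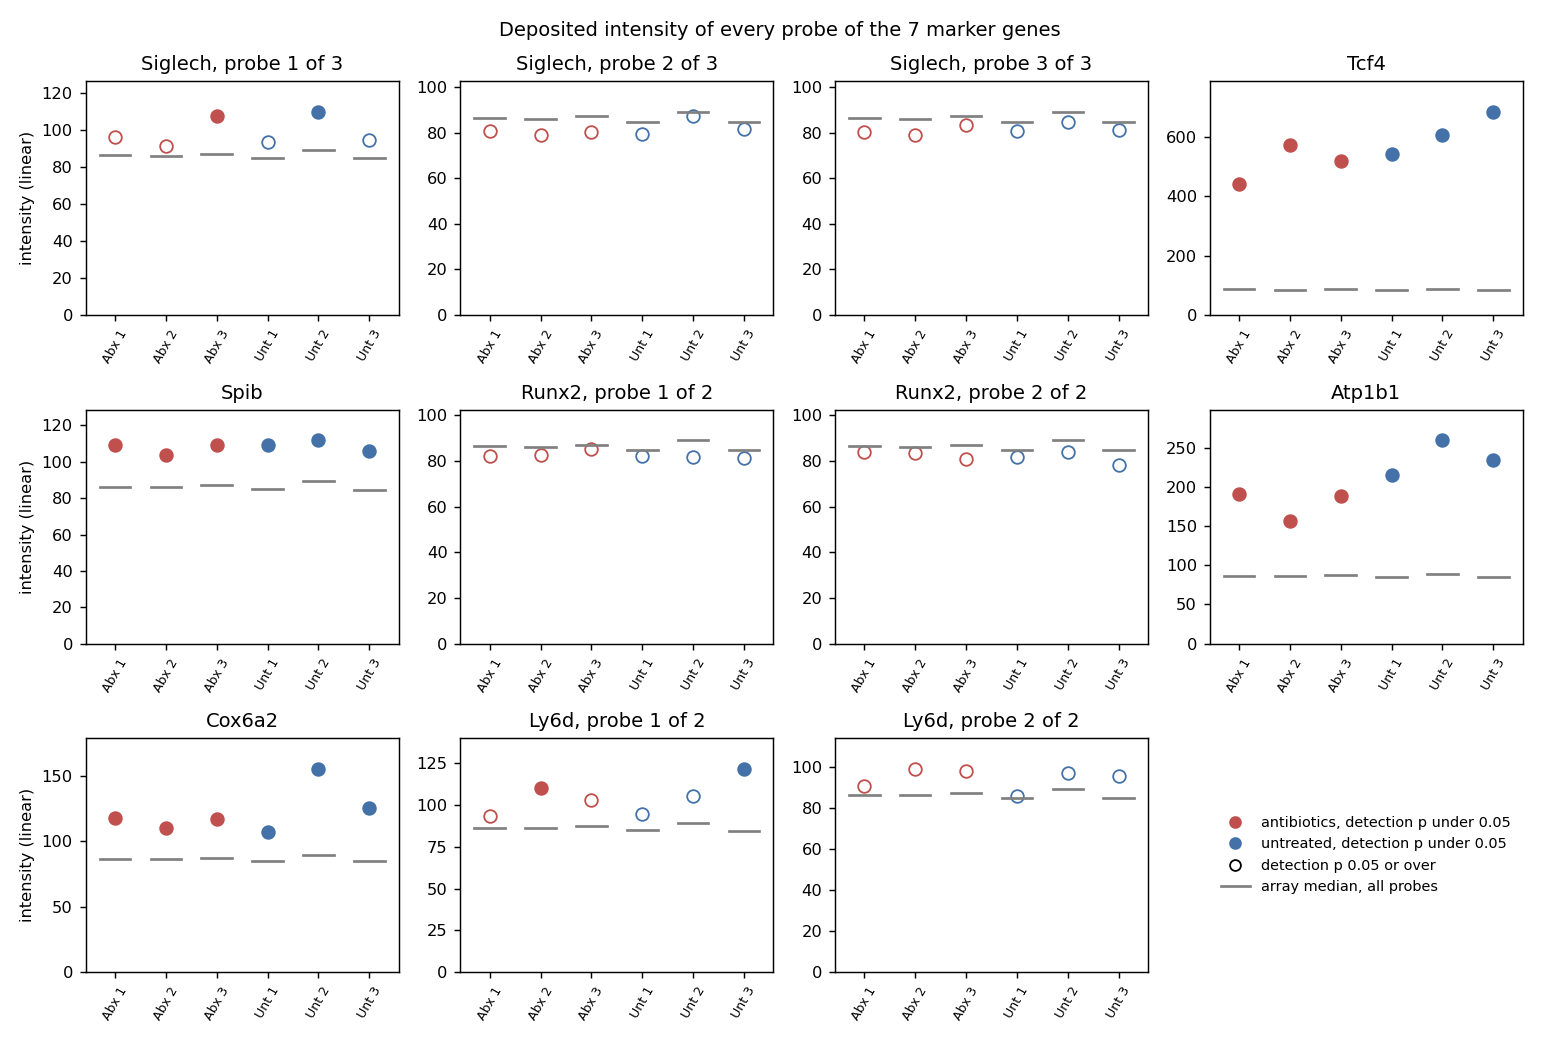
Deposited, not normalized intensity (linear axis from 0) of each of the 11 probes of the 7 genes on the 3 antibiotics arrays (Abx, red) and the 3 untreated arrays (Unt, blue); filled points were detected at a p under 0.05 and grey dashes mark the median of all probes on that array. The Siglech and Runx2 probes lie close to the dashes on most arrays, and Tcf4 and Atp1b1 lie above them on all 6. The brighter Ly6d probe read 93.5 to 121.8 and missed the detection rule, beside 104.0 to 112.0 for Spib, which met it.

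Ly6d, a small GPI-anchored protein that in mice marks lymphoid progenitors on the way to B cells or plasmacytoid DCs, also missed the detection rule. Its brighter probe read 93.5, 110.3 and 102.8 on antibiotics replicates 1 to 3, against 94.8, 105.5 and 121.8 on untreated replicates 1 to 3. It was detected on antibiotics replicate 2, with a detection value of 0.00752, and on untreated replicate 3, with a value of 0. Its other probe was detected on 0 arrays. Runx2, a transcription factor that in mice lets mature plasmacytoid DCs leave the bone marrow, was read by 2 probes with intensities of 81.0 to 85.1 in the antibiotics group and 78.2 to 84.1 in the untreated group. Both were detected on 0 arrays. The detection rule thus fell between Siglech and Ly6d, detected on 2 arrays each, and Spib, detected on all 6 with a p between 0.01128 and 0.03759. No member was detected on 3, 4 or 5 arrays. Among 16593 named genes on the array, 35.6% were measured and 59.7% had no probe detected on any array.

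Of the 4 measured genes, 0 passed the test between antibiotics and untreated (limma, adjusted p under 0.05 over all 6331 rows tested), where the share called over all rows was 0% and the smallest adjusted p was 0.214. Over all rows 490 (7.74%) had an unadjusted p under 0.05, 4.33% lower and 3.41% higher, and among the 4 genes 1 did, Atp1b1, which was lower. All 4 lay below the untreated level, at log2 fold changes between -0.57 and -0.11 with a median of -0.28, beside a median of 0.017 and 46.4% below 0 over all rows. With median scaling in place of quantile normalization, 59.4% of all rows were below 0 and the median of the 4 was -0.36. For 1 gene alone, the smallest two-sided p that exact permutation of 3 against 3 arrays allows is 0.1.

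Tcf4, the master regulator of the lineage, was the member furthest above background, with an intensity of 442.0, 572.6 and 517.1 on antibiotics replicates 1 to 3, against 541.9, 605.2 and 684.9 on untreated replicates 1 to 3. After background correction and quantile normalization its log2 level was 8.79, 8.98 and 8.70 with antibiotics and 8.97, 8.76 and 9.40 without. Untreated replicate 3 was the highest array, and the other 5 lay close together with the groups overlapping. The mean level was 8.82 ± 0.14 with antibiotics and 9.05 ± 0.33 without (SD, n = 3 each), a log2 fold change of -0.22 (SE 0.19, 95% interval -0.66 to 0.21, limma adjusted p = 0.813). Without antibiotics replicate 1 it was -0.21, and without untreated replicate 3 -0.044. The second E protein of the list with a probe, Tcf12 (HEB), stood at -0.039 (SE 0.19), and no probe was found for Tcf3 (E2A).

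Spib, the ETS factor that supports plasmacytoid DC survival and is also used by B cells, sat just above background on every array. Its intensity was 109.4, 104.0 and 109.3 on antibiotics replicates 1 to 3, against 109.1, 112.0 and 105.8 on untreated replicates 1 to 3. The normalized log2 level was 5.32, 5.14 and 5.19 with antibiotics and 5.43, 5.18 and 5.36 without, so the groups overlapped. The means were 5.22 ± 0.092 and 5.32 ± 0.13 (SD, n = 3 each, antibiotics and untreated), a log2 fold change of -0.11 (SE 0.14, 95% interval -0.43 to 0.22, limma adjusted p = 0.875). Without antibiotics replicate 1 it was -0.16. Log2 fold changes of probes this dim are understated, because the offset of 16 and the background pull their levels together. The related ETS gene Spi1 (PU.1) stood at 0.053 (SE 0.17).

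Atp1b1, the beta-1 subunit of the sodium-potassium pump a common marker in plasmacytoid DC signatures, showed the largest difference of the 4. Its intensity was 190.4, 156.6 and 188.3 on antibiotics replicates 1 to 3, against 215.2, 259.7 and 233.7 on untreated replicates 1 to 3. The normalized log2 level was 7.13, 6.45 and 6.78 with antibiotics and 7.32, 7.30 and 7.47 without. Every antibiotics array was lower than every untreated array, antibiotics replicate 2 by the most. Atp1b1 was the only one of the 4 whose groups did not overlap, where 13.7% of all rows did not overlap, 6.62% lower and 7.12% higher.

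The mean Atp1b1 level was 6.79 ± 0.34 with antibiotics and 7.36 ± 0.097 without (SD, n = 3 each). That is a log2 fold change of -0.57 (SE 0.19, 95% interval -1.01 to -0.14), a 1.49-fold lower level, with an unadjusted p of 0.0148 and an adjusted p of 0.531 in limma. It ranked at 176 of 6331 by unadjusted p and did not pass over all rows. Without antibiotics replicate 2 the log2 fold change was -0.41, and its unadjusted p was then no longer under 0.05. Without antibiotics replicate 1 it was -0.75, and without background correction -0.37. The gene of the beta-3 subunit, Atp1b3, stood at 0.18 (SE 0.18).

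Cox6a2, the heart and muscle form of a cytochrome c oxidase subunit that plasmacytoid DCs also express, was dim. Its intensity was 117.5, 110.3 and 116.8 on antibiotics replicates 1 to 3, against 107.1, 155.5 and 125.6 on untreated replicates 1 to 3. The normalized log2 level was 5.64, 5.37 and 5.45 with antibiotics and 5.35, 6.16 and 5.94 without. Untreated replicates 2 and 3 lay above every antibiotics array and untreated replicate 1 below every one, so the groups overlapped. The means were 5.49 ± 0.14 with antibiotics and 5.82 ± 0.42 without (SD, n = 3 each), a log2 fold change of -0.33 (SE 0.22, 95% interval -0.82 to 0.16, limma adjusted p = 0.765). Its value was -0.41 when antibiotics replicate 1 was left out. It was -0.57 without untreated replicate 1, -0.16 without untreated replicate 2, -0.15 without background correction and -0.21 at an offset of 50. Cox6a1, the form used in most tissues, stood at -0.0016 (SE 0.16), with its other probe at 0.0096, and the partner subunit gene Cox6b1 at 0.0077 (SE 0.14).

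**Figure D2:**
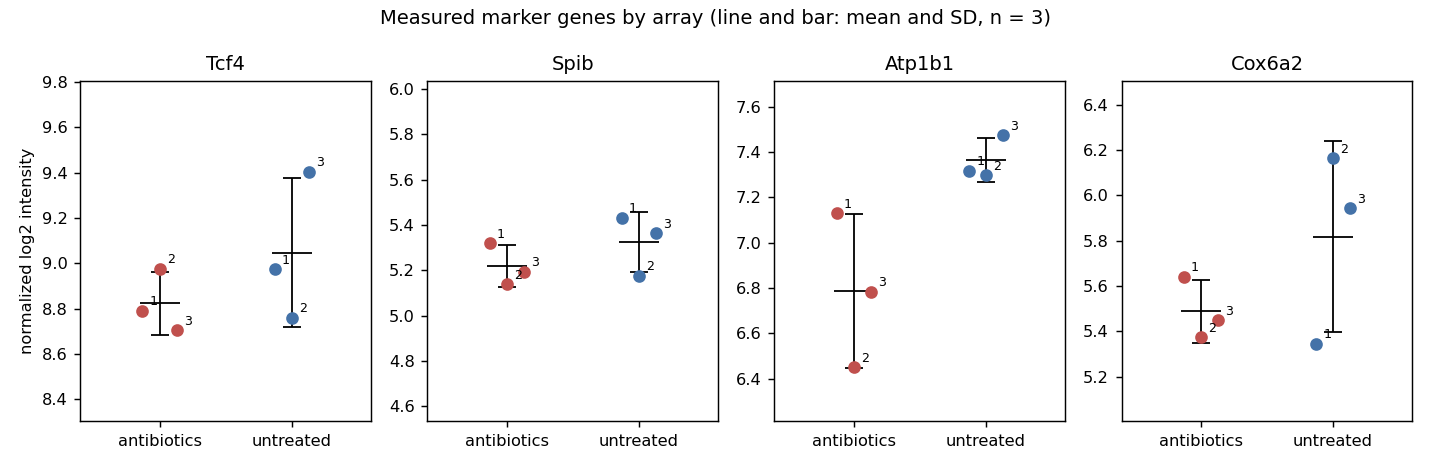
Normalized log2 intensity of the 4 measured genes on each antibiotics array (red) and each untreated array (blue), numbered by replicate, with the mean and SD of 3 arrays; each panel spans the same width of the log2 axis. The groups are apart for Atp1b1 and overlap for Tcf4, Spib and Cox6a2.

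The highest and the lowest array were not the same for all 4 genes. Untreated replicate 3 was the highest array for Tcf4 and Atp1b1, untreated replicate 2 for Cox6a2 and untreated replicate 1 for Spib. The lowest array was antibiotics replicate 3 for Tcf4, antibiotics replicate 2 for Spib and Atp1b1, and untreated replicate 1 for Cox6a2. Likeness of profile was measured as the root mean square difference of log2 levels over the 6 arrays after each gene's own mean was taken away. By it the 3 named genes nearest to Atp1b1 were Gcnt2 at 0.096, Wdr83 at 0.10 and Ddx6 at 0.10, where the median gene lay at 0.41. Gcnt2, a glycosyltransferase gene, had a log2 fold change of -0.73 (SE 0.18) and Ddx6, an RNA helicase gene, -0.58 (SE 0.15). Wdr83 stood at -0.46 (SE 0.21), and all 3 had an adjusted p over 0.05 in limma. Likeness over the 6 arrays includes the difference between the groups, so fold changes near that of Atp1b1 follow from how these genes were picked. Nearest to Tcf4 were Pno1, Dync1li2 and Ppp2r5a at 0.066 to 0.071, where the median gene lay at 0.31. Nearest to Cox6a2 were Lactb, Atp6v1h and Lzic at 0.081 to 0.11, and nearest to Spib were Hoxa4, Mthfs and Vmn1r63 at 0.036 to 0.037, with the median gene at 0.37 and 0.23 for these 2 members. Only the 4 measured marker genes could appear in this search, and none was among the 3 genes nearest to another. With 5901 named genes searched, that does not show whether the 4 vary together.

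Other genes known from plasmacytoid DCs were measured in part, and those measured were split in direction. Of 24 such genes 21 had a probe, 10 were measured and 10 were detected on 0 arrays. Among all named genes on the array, 35.6% were measured and 59.7% had no probe detected on any array. The listed genes at 0 included the gut-homing receptor gene Ccr9, Lair1, Cd7 and Dntt. Of the 10 measured, 0 passed the test in either direction, 6 were lower and 4 higher, with a median log2 fold change of -0.078 beside 0.017 over all rows. Without antibiotics replicate 1 that median was 0.021, on the other side of 0. Upb1, an enzyme of pyrimidine breakdown, read 5.58, 5.56 and 5.36 with antibiotics and 5.74, 6.08 and 5.95 without, on the log2 scale. Its groups did not overlap, and the difference was -0.43 (SE 0.15, limma adjusted p = 0.565), or -0.48 with its other probe. Pld4, a lysosomal exonuclease that degrades the DNA ligands of endosomal receptors, was higher without overlap, at 9.50, 9.46 and 9.40 with antibiotics and 9.16, 9.30 and 8.83 without, a log2 fold change of 0.36 (SE 0.16, adjusted p = 0.635). Bst2, the target of a common plasmacytoid DC stain and itself induced by interferon, stood at -0.36 (SE 0.24) with overlapping groups, and the checkpoint receptor gene Lag3 at 0.19 (SE 0.18), or 0.035 without antibiotics replicate 1.

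Genes listed as regulators of the lineage lay on either side of 0. The list includes factors that favour conventional DCs, so its counts and median give no direction for the lineage. Of 28 listed, 26 had a probe and 18 were measured, with 0 past the test, 10 higher, 8 lower and a median of 0.014. Id2, whose protein blocks E proteins such as TCF4 and favours conventional DCs, read 6.83, 6.57 and 7.02 with antibiotics and 6.66, 6.41 and 6.14 without, a log2 fold change of 0.41 (SE 0.19, limma adjusted p = 0.645) with overlapping groups. Its other probe gave 0.090. Ikzf1 (Ikaros), a zinc finger factor of lymphoid and plasmacytoid DC development, stood at -0.53 (SE 0.20, adjusted p = 0.566), and Mycl, a factor of conventional DCs, at 0.57 (SE 0.21, adjusted p = 0.575), both without overlap. Without antibiotics replicate 1 they stood at -0.33 and 0.50, and the list median at 0.038. Stat3, which relays the growth signal of FLT3 ligand, stood at -0.36 (SE 0.20). The RUNX gene Runx1 and the shared RUNX partner Cbfb stood at -0.020 (SE 0.27) and 0.0019 (SE 0.14), and Runx3 was detected on 0 arrays.

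The route from endosomal sensing to interferon was measured in 16 of 25 listed genes, of which 23 had a probe. Of the 16, 0 passed, 11 were higher and 5 lower, with a median of 0.10. Irf7, the factor that drives interferon alpha transcription in plasmacytoid DCs and is itself induced by interferon, read 5.47, 5.73 and 5.80 with antibiotics and 6.33, 6.23 and 6.07 without. The difference was -0.54 (SE 0.15, limma adjusted p = 0.449) without overlap. Unc93b1, which carries endosomal Toll-like receptors to their compartment, stood at 0.23 (SE 0.14), and Spp1 (osteopontin) at 0.46 (SE 0.26), or 0.19 without antibiotics replicate 1. Tlr7 stood at 0.019 (SE 0.29), and Ifna2, Ifna4, Ifna5 and Ifnb1 were detected on 0 arrays. Tlr7 and Spp1 were each detected on 4 arrays, and no probe was found for Tlr9. The interferon alpha genes are near-identical copies whose probes can share signal, and Ifna1 and Ifna6, both dim, stood at 0.088 and 0.14.

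Among relatives and partners of the 7 genes, 12 of 28 were measured, with 24 having a probe. Of these 0 passed, 5 were higher and 7 lower, with a median of -0.0017 and a range of -0.30 to 0.25, and the median was -0.064 without antibiotics replicate 1. The extremes were Ly6c1, a Ly6 family gene of several leukocytes and endothelium, at -0.30 (SE 0.25), or -0.61 without antibiotics replicate 1, and the cytochrome c oxidase gene Cox8a at 0.25 (SE 0.17). Ly6e stood at -0.0018 (SE 0.17), and no probe was found for Ly6c2.

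**Figure D3:**
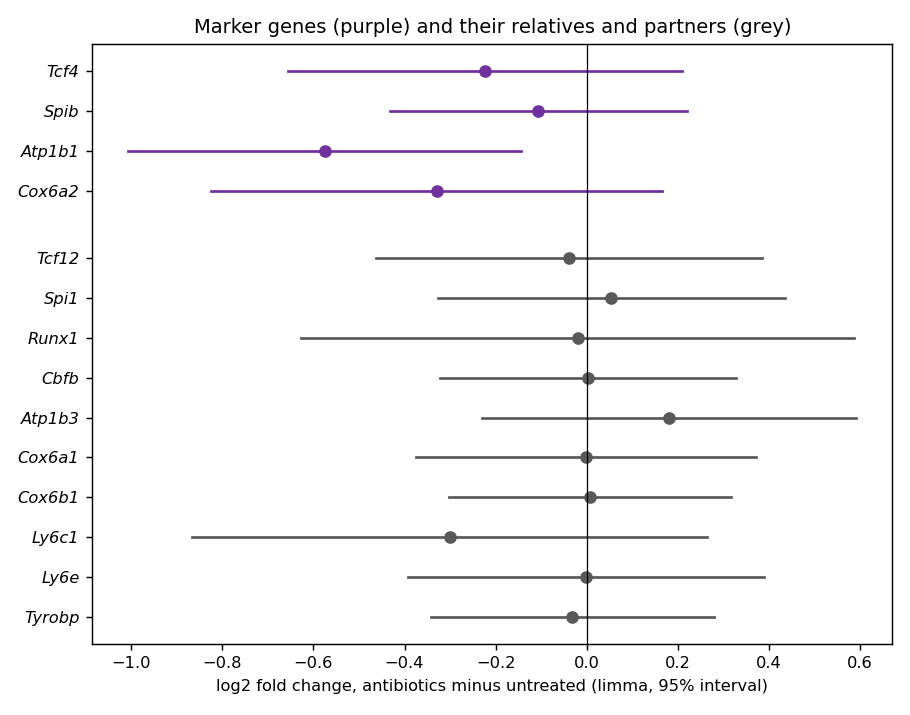
Log2 fold change, antibiotics minus untreated, with its 95% limma interval for the 4 measured marker genes (purple) and 10 relatives or partners (grey). The interval of Atp1b1 runs from -1.01 to -0.14 before any adjustment, and each of the other 13 includes 0.

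None of the measured B cell genes passed the test. Of 18 listed, 15 had a probe, 10 were detected on 0 arrays and 5 were measured. Of all named genes on the array, 59.7% had no probe detected on any array. Of the 5 measured, 4 were lower, 1 higher and 0 past the test. Their median was -0.72 (-0.53 without antibiotics replicate 1), in both cases the value of Chst3. The list was chosen with earlier results of these data known, so this median is a description and not a test. The defining genes Cd79a, Ms4a1, Pax5 and Ebf1 were among those detected on 0 arrays, while Cd79b was measured and stood at -0.057 (SE 0.14). The summed background-corrected intensity of the 5 ran from 305 to 391 with antibiotics and from 407 to 476 without. Fcmr, the IgM receptor, stood at -1.06 (SE 0.27), the sulfotransferase gene Chst3 at -0.72 (SE 0.22), the inhibitory sialic acid receptor gene Cd22 at -0.79 (SE 0.25) and Fcrla, at 0.43 (SE 0.17), was the one that was higher, with its other measured probes at 0.32 and 0.29. Fcmr and Cd22 were dim, and each was detected on 5 arrays. The part of B cell RNA in the values of Tcf4, Spib and Ly6d was not tested.

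**Figure D4:**
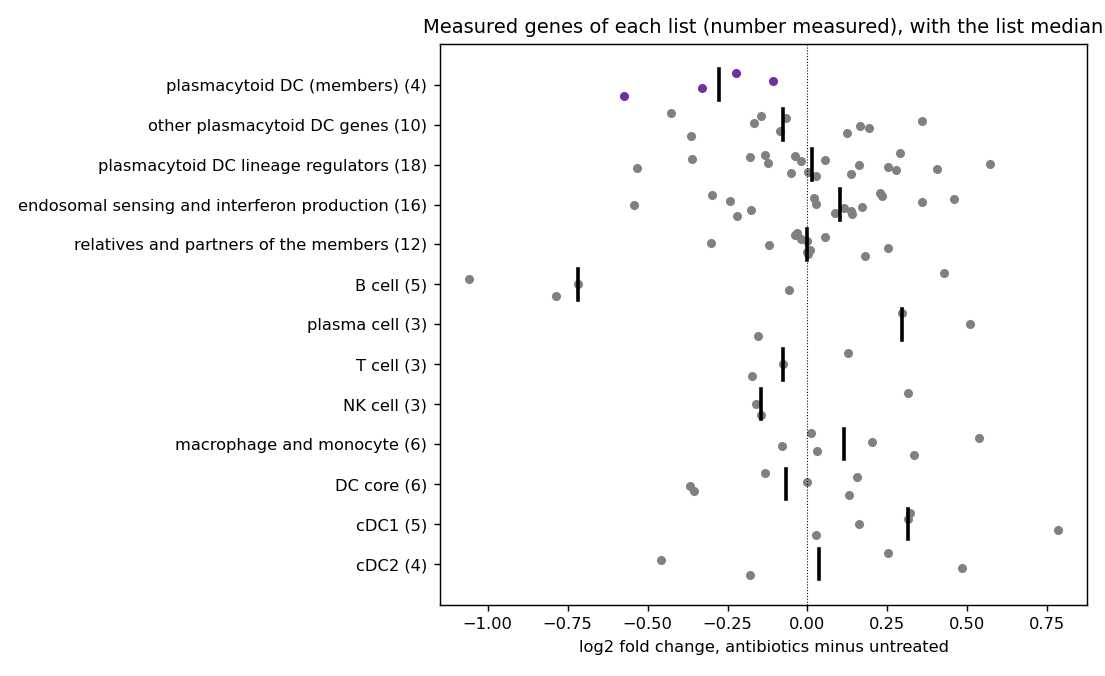
Log2 fold change, antibiotics minus untreated, of every measured gene of each list (points) with the list median (black bar); the 4 measured marker genes are purple and the number in brackets is the number measured. The marker gene median lies at -0.28, that of the other plasmacytoid DC genes at -0.078 and that of the 5 B cell genes at -0.72, the value of Chst3.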

How the data were processed

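Gene expression was measured with an Illumina mouse bead array in 3 antibiotics and 3 untreated samples, grouped by their titles. The authors deposited the intensity of each probe before normalization and, per the file headers, its detection p-value on every array. A second table held intensity normalized by the authors, with a method not given in the sources used here, and the deposited series values equalled it.

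The first table was corrected with limma 3.58.1 (R 4.3.3) by normexp from the detection p-values with an offset of 16, quantile-normalized and put on the log2 scale. Probes detected on at least 3 of 6 arrays were kept (7507), and the brightest kept probe stood for a gene, which left 6331 rows, 5901 of them named genes. Groups were compared with lmFit and eBayes, with Benjamini-Hochberg adjustment over the 6331 and a threshold of 0.05. The fit was tested on simulated data whose changes were all larger than those of the measured marker genes. That check therefore does not show whether differences as small as theirs could be called. Fold changes are antibiotics minus untreated. The number of arrays limits the precision. Platform symbols were missing for 1719 probes, and listed genes without one were sought by accession. No probe sequences were used.

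The members and gene lists were chosen with earlier results of these data known. Named genes are the 7, up to 4 per list by smallest p, set identity genes and partners, and the 3 nearest profiles per measured gene, so far as they bear on the 7, and 1 partner gene is not reported here. Replicate numbers are shared by the groups, and same-numbered arrays did not deviate together (correlations of -0.046, -0.060 and -0.15), so they were not treated as pairs.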

Additional observations from a re-analysis of the deposited data

How the results depend on the processing

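Over 16 alternatives (background correction, offset, median scaling, the authors' normalized table, 3 detection filters, probe averaging, array weights, a replicate block and leaving out each array), 0 members and 0 of all genes passed an adjusted p of 0.05 in limma. The count of all genes at an unadjusted p under 0.05 was 490 as reported and ran from 341 to 690, or 1094 of 18312 rows without the detection filter. Among members that count ran from 0, without antibiotics replicate 2, to 2, without untreated replicate 1. The 4 measured genes stayed below the untreated level in every one of these fits in which they were tested, and Spib was not tested at a detection p under 0.01. Atp1b1 ran from -0.75 to -0.37, Cox6a2 from -0.57 to -0.15, Tcf4 from -0.37 to -0.044 and Spib from -0.18 to -0.039. The median of the 4 ran from -0.41 to -0.18 when 1 array was left out and from -0.36 to -0.17 under the other alternatives. With the replicate block the adjusted p of Atp1b1 was 0.704, the count of all genes at an unadjusted p under 0.05 was 417 and no call changed. Of the 3 antibiotics arrays, 0 deviated most like the untreated array of the same number. Signal over background limits what can be said of Siglech, Ly6d and Runx2, where a level below detection on these arrays does not show that the gene was silent.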

Other observations

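Lists of other DC subsets and other cells gave values that stand outside the comparison above. The 5 measured genes of cDC1, the cross-presenting conventional DC, were all higher, with a median log2 fold change of 0.32. Over all rows 46.4% were below 0. The 5 ran from 0.025 (SE 0.14) for Batf3 to 0.78 (SE 0.19) for Cadm1, an adhesion molecule. Clec9a and Naaa, also on the cDC1 list, were detected on 0 arrays. The 4 of cDC2, the subset that mainly serves CD4 T cells, had a median of 0.035 (0.011 without antibiotics replicate 1), with Esam at -0.46 and the fractalkine receptor gene Cx3cr1 at 0.48. Of 6 measured core DC genes 2 were higher, 3 lower and 1 at 0, with a median of -0.067. The gene at 0 was H2-Ab1, whose brightest probe read either 13.908 or 13.955 on each array. Its other probes stood at -0.41, -0.020 and -0.033. The 6 macrophage and monocyte genes had a median of 0.11 (0.040 without antibiotics replicate 1), with Lyz2 at 0.54 (0.14 with its other probe). The 3 plasma cell genes had a median of 0.29, the 3 T cell genes -0.078 and the 3 NK cell genes -0.15. Without antibiotics replicate 1 these medians were 0.40, 0.027 and -0.27. Cd3e and Ncr1 were detected on 0 arrays. The plasma cell median of 0.29 was the value of Xbp1, with Txndc5 at 0.51 and Mzb1 at -0.16. Jchain, Sdc1, Prdm1, Tnfrsf17 and Derl3, also on the plasma cell list, were detected on 0 arrays. In these lists 0 genes passed the test.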
